A study of Pyrus pyrifolia with 6 samples.

Results

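The 3 genes described here held most of the metallothionein transcripts of pear pulp. They are LOC103947618, named as metallothionein-like protein type 3, and LOC103944925 and LOC103941805, both named as metallothionein-like protein type 2. They are 3 of 13 genes whose product name holds the word metallothionein, in a table of 38969 genes. They were selected on their abundance in these same libraries, so their levels are given as a description with no test. Only the difference between watercore and healthy pulp was tested. The selection rule did not use that difference, but the genes were chosen with earlier results of these data known.

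Metallothioneins are small proteins rich in cysteine that bind copper, zinc and other metal ions through their sulphur groups. In plants they buffer the supply of metals to enzymes, and they can also quench reactive oxygen species. Plant types are told apart by how the cysteines are spaced. Type 3 transcripts are known for their abundance in ripening fleshy fruit, type 2 transcripts are common in leaves and many other organs, and type 4 transcripts are typical of seeds.

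Pulp with watercore, a disorder in which fruit tissue turns translucent, was compared with healthy pulp of sand pear (Pyrus pyrifolia) by RNA-seq, with 3 libraries in each group. All 6 libraries carry the cultivar label Qiurong and a harvest label of 120 days, and the trees stood in an orchard, while the study calls the cultivar Akibae and gives a later day after flowering. The labels also name the organ as fruit skin, whereas the treatment text and the study's own account speak of pulp. No label says whether each library came from separate fruits, so the p-values measure the spread between these libraries, although the study describes its samples as biological replicates. The study took its fruits from 3 trees and does not say which tree gave which library.

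Watercore libraries held 14431337 to 15290688 counts and healthy libraries 14382020 to 14871188, and libraries of 1 group differed by 4.39 to 11.2 times the variance that sampling alone gives. Marker lists were read for the tissue question and for other tissues. Over all 21200 tested genes, 32.3% were higher and 30.4% lower in watercore pulp at an edgeR adjusted p under 0.05. Skin and cuticle markers summed to 107 to 119 CPM in watercore pulp and 111 to 118 CPM in healthy pulp, with 31 of 57 genes at 0 in all libraries, and 3 of 9 tested genes were higher and 3 lower. Flesh markers (sorbitol dehydrogenases and expansins) summed to 4449 to 4576 CPM and 4687 to 4823 CPM in the same order, with 15 of 56 genes at 0, 20 of 26 tested genes higher and 5 lower. The study reports some sorbitol dehydrogenase genes as decreased in watercore pulp, whereas most tested genes of this list were higher. The list was not split into dehydrogenases and expansins, and it does not measure flesh content alone. Green tissue markers summed to 1001 to 1108 CPM in watercore pulp and 965 to 997 CPM in healthy pulp, with 5 of 32 genes at 0, 3 of 13 tested genes higher and 4 lower. Seed storage markers stood apart, at 1678 to 1838 CPM in watercore pulp against 163 to 213 CPM in healthy pulp, with 10 of 26 genes at 0, 7 of 10 tested genes higher and 0 lower. The part of seed, skin or green tissue transcripts in the metallothionein results was not tested.

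LOC103947618, the type 3 gene, had the highest FPKM value of the whole table in each of the 6 libraries. FPKM, the authors' own scale, relates fragments to gene length and library size, and it allows levels of different genes to be set side by side. The gene lies on the minus strand of scaffold NW_008988087.1 between bases 798244 and 799505 and has an annotated length of 525 bases. Its level was 27630, 25564 and 28791 FPKM in the watercore libraries, against 56525, 50580 and 54160 FPKM in the healthy libraries. All watercore values lay below all healthy values, and the lowest healthy library was well above the highest watercore library.

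On the scale of the test, CPM (counts relative to library size, with the sizes adjusted by TMM), LOC103947618 averaged 14400 ± 881 CPM in watercore pulp and 28563 ± 1646 CPM in healthy pulp (SD, n = 3 each). The deposited counts were 221020, 193349 and 221043 in the watercore libraries, and 442364, 400239 and 408764 in the healthy libraries. The fitted level in watercore pulp was 0.504 times that in healthy pulp. This corresponds to a log2 fold change of -0.99 (SE 0.07, 95% interval -1.15 to -0.83, edgeR adjusted p = 5.06e-06). By counts the gene took rank 3 of the table in every watercore library and rank 1 in every healthy library. In bulk tissue, fewer cells of a type and less RNA per cell cannot be told apart.

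LOC103944925, the most abundant type 2 gene, moved the other way. It lies on the minus strand of scaffold NW_008988068.1 between bases 341839 and 342796, with an annotated length of 640 bases. Its level was 9908, 9640 and 9500 FPKM in the watercore libraries, against 7190, 7762 and 8207 FPKM in the healthy libraries. Every watercore library was above every healthy library, and the watercore libraries were close to each other.

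In CPM, LOC103944925 averaged 6219 ± 131 in watercore pulp and 4999.8 ± 331 in healthy pulp (SD, n = 3 each), from 96616, 88885 and 88916 counts in watercore libraries and 68592, 74870 and 75507 counts in healthy libraries. The fitted level was 1.24 times the healthy one, a log2 fold change of 0.31 (SE 0.06, 95% interval 0.17 to 0.46, edgeR adjusted p = 0.00194). Its rank by counts was 5 to 6 in watercore libraries and 8 to 10 in healthy libraries.

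LOC103941805, the other abundant type 2 gene, was lower in watercore pulp. It lies on the plus strand of scaffold NW_008989365.1 between bases 9826 and 10893, with an annotated length of 683 bases. Its level was 4288, 3992 and 3890 FPKM in the watercore libraries, against 6108, 5777 and 6459 FPKM in the healthy libraries. The groups did not overlap, and the highest watercore value was below the lowest healthy value.

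LOC103941805 averaged 2780 ± 141 CPM in watercore pulp and 4227 ± 244 CPM in healthy pulp (SD, n = 3 each). Its counts were 44620, 39280 and 38849 in watercore libraries and 62191, 59469 and 63421 in healthy libraries. The fitted level in watercore pulp was 0.658 times the healthy level, with a log2 fold change of -0.60 (SE 0.06, 95% interval -0.75 to -0.46, edgeR adjusted p = 5.46e-05). Its rank by counts was 12 to 16 in watercore libraries and 11 to 12 in healthy libraries.

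**Figure D1:**
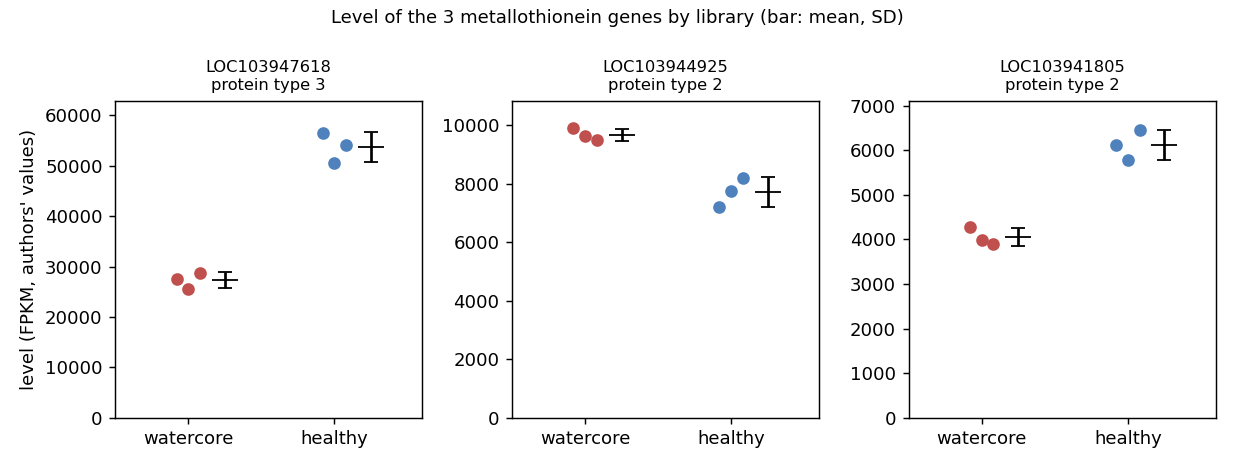
Level of the 3 metallothionein genes in each library (vertical axis, FPKM as the authors computed it, starting at 0, with its own scale in each panel), watercore left and healthy right, with points for libraries and bars for the mean and SD of 3. Watercore points lie below healthy points for LOC103947618 and LOC103941805 and above them for LOC103944925.

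Of the 3 genes, 2 were lower and 1 was higher in watercore pulp at an adjusted p under 0.05, where 30.4% of the 21200 genes tested were lower and 32.3% were higher. None of the 3 reached the 2-fold change that the study's threshold adds, a log2 fold change of 1 or more in either direction, where 7.54% of tested genes were lower and 17.6% higher. LOC103947618, at -0.99, lay just short of that line, and it crossed it in 5 of 18 alternative settings. A call in either direction was thus common in this comparison and is not particular to these genes. The order of their levels per length was the same in both groups, LOC103947618 above LOC103944925 above LOC103941805, and the libraries of neighbouring genes in that order did not overlap. The share of all tested genes without overlap between watercore and healthy libraries was not counted. Each such lack of overlap in this report, for genes, ratios or shares, is therefore description only. Genes that were not called could lack overlap too, such as LOC103947701, a heavy metal-associated isoprenylated plant protein gene (edgeR adjusted p = 0.0581).

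Genes of like abundance and like length were read as background. Among the 100 most abundant tested genes, 40 were lower and 35 higher in watercore pulp, with a median log2 fold change of -0.07, against 0.00 over all tested genes (quartiles -0.49 and 0.66). Within these 100, 4 genes had a lower log2 fold change than LOC103947618, 16 a lower one than LOC103941805 and 30 a higher one than LOC103944925. Short genes leaned downward, since 46.8% of the 4241 genes of at most 1115 bases were lower and 21.8% higher, with a median log2 fold change of -0.37. All 3 metallothionein genes fall in this length class. With offsets that take out the trend of counts with gene length, the log2 fold changes were -0.61 for LOC103947618, 0.71 for LOC103944925 and -0.20 for LOC103941805. All 3 then still passed the test, the weakest being LOC103941805 (edgeR adjusted p = 0.0201), and the sizes of all 3 moved by more than 1.5 times.

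**Figure D2:**
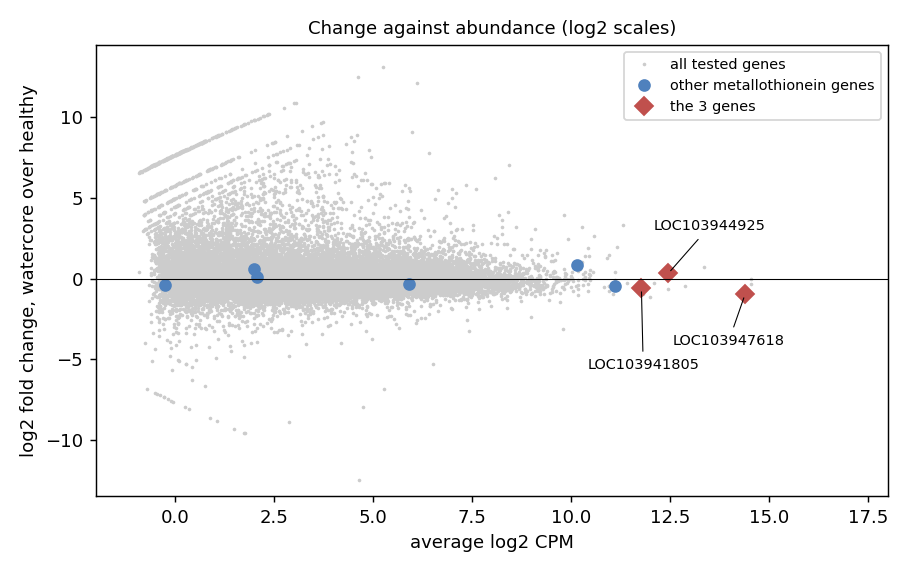
Log2 fold change of watercore over healthy pulp (vertical axis) against average log2 CPM (horizontal axis) for the 21200 tested genes (grey), the 6 other tested metallothionein genes (blue) and LOC103947618, LOC103944925 and LOC103941805 (red). The red points lie at the abundant end, with fold changes of -0.99, 0.31 and -0.60, and the straight grey streaks at the left are genes at or near 0 counts in one group, whose fitted values depend on the prior count.

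A ratio between 2 of these genes within a library does not depend on how libraries are scaled. The log2 ratio of LOC103947618 to LOC103944925 counts was 1.19, 1.12 and 1.31 in watercore libraries, against 2.69, 2.42 and 2.44 in healthy libraries, a difference of -1.31. For LOC103947618 to LOC103941805 the log2 ratio was 2.31, 2.30 and 2.51 in watercore libraries, against 2.83, 2.75 and 2.69 in healthy libraries, a difference of -0.38. The pair of type 2 genes, LOC103944925 to LOC103941805, had log2 ratios of 1.11, 1.18 and 1.19 in watercore libraries, against 0.14, 0.33 and 0.25 in healthy libraries, a difference of 0.92. The groups did not overlap for any of the 3 pairs. Each exact two-sided permutation test gave p = 0.1, the smallest that 3 libraries against 3 allow, and the adjusted value over the 3 pairs was also 0.1. With each library left out in turn, the differences lay between -1.36 and -1.22, between -0.45 and -0.35, and between 0.87 and 0.97 for the pairs in the order given. Per length, LOC103947618 stood at 2.82 ± 0.192 times the FPKM of LOC103944925 in watercore pulp, and at 6.99 ± 0.754 times in healthy pulp (SD, n = 3 each).

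The family as a whole took up less of the watercore libraries. All 13 metallothionein genes together held 2.67 ± 0.134% of the counts in watercore libraries and 4.13 ± 0.169% in healthy libraries, of which the 3 abundant genes held 2.33 ± 0.105% and 3.78 ± 0.169% (SD, n = 3 each, watercore before healthy). The Wilson 95% intervals of single libraries reached at most 0.0104 percentage points to either side, and they cover counting error only. In CPM the family summed to 26771 ± 1178 in watercore pulp and 41266 ± 1642 in healthy pulp, a ratio of 0.649. That is a net difference of 14495 CPM, in which genes of both directions enter. The 7 genes with a lower mean in watercore pulp differed by 16354 CPM in all, of which LOC103947618 made up 86.6%, LOC103941805 gave 1446 CPM and LOC103944923 gave 731 CPM. The 5 genes with a higher mean gave back 1859 CPM, of which LOC103944925 gave 1220 CPM and LOC103954313 gave 637 CPM.

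**Figure D3:**
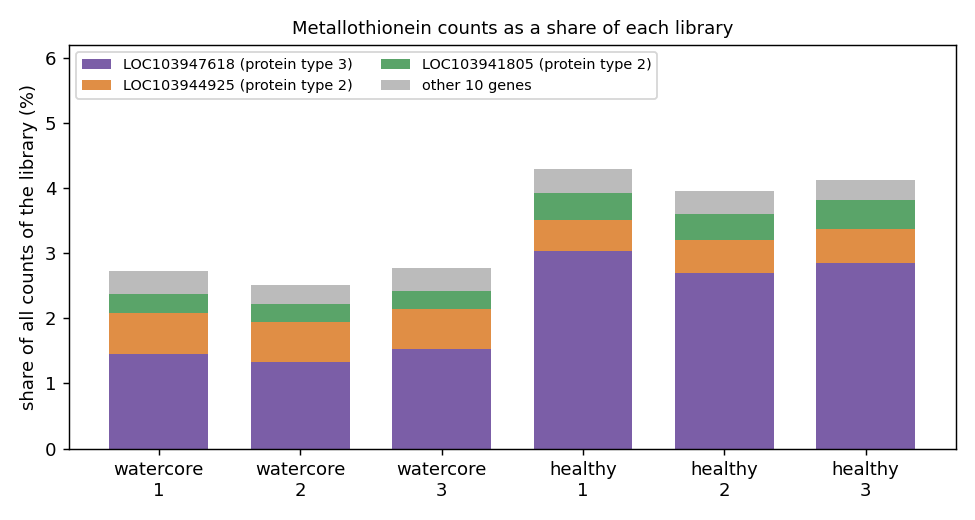
Share of all counts of a library (vertical axis, percent, starting at 0) held by LOC103947618, LOC103944925, LOC103941805 and the other 10 metallothionein genes, for the 3 watercore and then the 3 healthy libraries. The stacks reach 2.52 to 2.77% in watercore libraries and 3.96 to 4.30% in healthy libraries, and the LOC103947618 segment is the shorter one in every watercore library.

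The make-up of the family also differed. The 3 abundant genes together held 87.4 ± 0.518% of all metallothionein counts in watercore pulp and 91.6 ± 0.839% in healthy pulp. LOC103947618 held 53.8 ± 1.30% of all metallothionein counts in watercore pulp and 69.2 ± 1.31% in healthy pulp. LOC103944925 held 23.3 ± 1.05% in watercore pulp and 12.1 ± 1.03% in healthy pulp (SD, n = 3 each). For both genes the libraries of the groups did not overlap. LOC103941805 held 10.4 ± 0.591% in watercore pulp and 10.2 ± 0.411% in healthy pulp, and here the libraries overlapped, so its share of the family was not distinguishable between the groups. Computed from FPKM in place of counts, the shares were 60.5% and 75.5% for LOC103947618, 21.5% and 10.9% for LOC103944925, and 8.99% and 8.59% for LOC103941805, in watercore and healthy pulp in that order.

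The 9 type 2 genes as a sum differed little between the groups, and whether they differed depended on the scale and the setting. Their CPM summed to 10873, 10328 and 10330 in watercore libraries, against 9775, 10020 and 10543 in healthy libraries, and the groups overlapped. In FPKM they summed to 16861, 16038 and 16024 in watercore libraries, against 14796, 15272 and 15929 in healthy libraries, and every watercore library was above every healthy one by a small margin. Merged into 1 gene before the fit, a choice made after seeing the data, they gave a log2 fold change of 0.07 (SE 0.05, 95% interval -0.05 to 0.19, edgeR adjusted p = 0.299). With gene length offsets the same merged gene gave 0.46 (edgeR adjusted p = 3.2e-04), so this result depended on that setting. Within the type 2 sum, LOC103944925 held 59.2 ± 0.662% of the counts in watercore pulp and 49.4 ± 1.50% in healthy pulp. LOC103941805 held 26.4 ± 0.598% in watercore pulp and 41.8 ± 1.83% in healthy pulp, and LOC103954313, a further type 2 gene, 13.8 ± 0.598% and 8.08 ± 1.53% in the same order (SD, n = 3 each). None of these 3 shares overlapped between the groups. No source used here says how reads that fit more than 1 of these genes were counted, so the split among like copies is uncertain. Merging removes the split, but not the loss of reads if those that fit several genes were dropped.

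Of the other 10 metallothionein genes, 6 passed the filter on low counts. Of these 6, 1 was lower, 1 higher and 4 were not called, where 30.4% of all tested genes were lower and 32.3% higher. Their median log2 fold change was -0.11, against 0.00 over all tested genes. LOC103944923, named as metallothionein-like protein 1, had 1981, 1628 and 1959 CPM in watercore libraries, against 2755, 2606 and 2401 CPM in healthy libraries. It was lower in watercore pulp, with no overlap (log2 fold change -0.48, SE 0.09, edgeR adjusted p = 0.00118). The type 2 gene LOC103954313 had 1503, 1364 and 1488 CPM in watercore libraries, against 802, 956 and 685 CPM in healthy libraries. Its watercore libraries all lay above its healthy ones (log2 fold change 0.83, SE 0.11, edgeR adjusted p = 1.81e-04). It overlaps LOC108867723, an ACCELERATED CELL DEATH 6-like gene on the same strand, so reads of the shared stretch could belong to either gene.

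The remaining tested metallothionein genes were far less abundant. LOC103933440, a type 2 gene, averaged 53.7 ± 7.75 CPM in watercore pulp and 66.8 ± 9.90 CPM in healthy pulp (log2 fold change -0.32, edgeR adjusted p = 0.0586). It overlaps an uncharacterised gene on the opposite strand, and no source used here says whether the counting used strand. LOC103944922, a second gene of the protein 1 name, averaged 4.66 ± 0.668 CPM in watercore pulp and 3.10 ± 0.672 CPM in healthy pulp (log2 fold change 0.59, edgeR adjusted p = 0.0571). Neither passed the test, although both did so in some alternative settings. LOC103954323 and LOC103954322, both of type 2, had log2 fold changes of 0.09 and -0.39 with wide errors (SE 0.30 and 0.51, edgeR adjusted p = 0.812 and 0.531).

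Too few counts for a test were found in 4 genes, LOC103933430, LOC103954312, LOC103933443 and LOC103962434. LOC103933443 had 0 counts in every library. LOC103962434, named as metallothionein-like protein 4B, had 5, 6 and 3 counts in watercore libraries, against 0, 1 and 0 counts in healthy libraries. Adjusted for library totals, the watercore sum was 13.9 times the healthy one, and counting error alone allowed 2.11 to 587 times (95%). Seed storage markers, given above, were also at a higher level in the watercore libraries, and their part in this ratio was not tested.

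**Figure D4:**
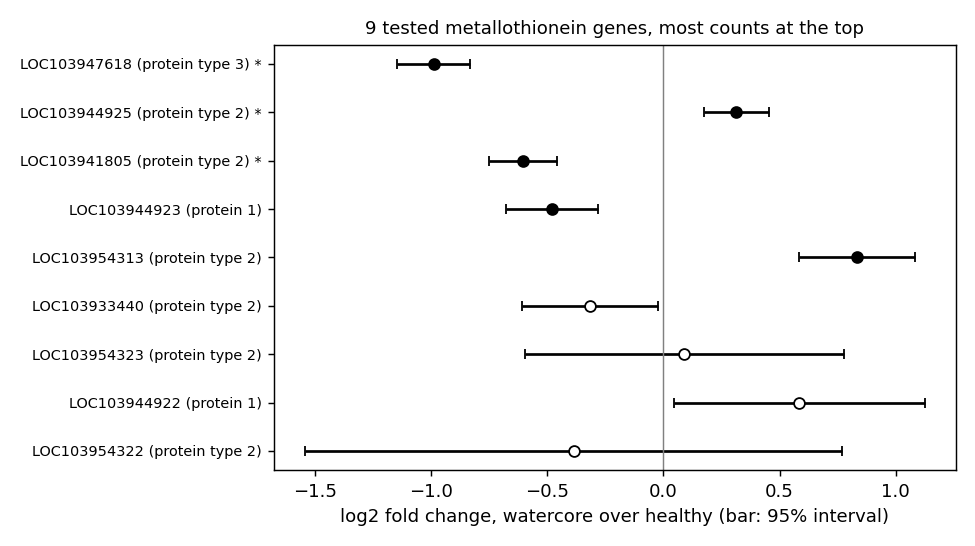
Log2 fold change of watercore over healthy pulp (horizontal axis) with its 95% interval for the 9 tested metallothionein genes, ordered by counts with the most abundant at the top, where filled points passed an adjusted p of 0.05 and asterisks mark the 3 abundant genes. LOC103947618, LOC103941805 and LOC103944923 lie left of 0 and LOC103944925 and LOC103954313 right of it, while the 4 least abundant genes have open points.

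One pair of neighbouring metallothionein genes passed the test in opposite directions. LOC103944925 sits between LOC103944922 and LOC103944923 on scaffold NW_008988068.1, all on the minus strand, with gaps of 5689 and 7011 bases and 0 annotated genes in either gap. Of these, LOC103944925 was higher in watercore pulp and LOC103944923 lower, while LOC103944922 was not called. A second cluster, on scaffold NW_008988151.1, holds LOC103954313 and the untested LOC103954312 with 2197 bases between them, and LOC103954323 and LOC103954322, neither of them called, with 2014 bases between them. LOC103947618 has no metallothionein neighbour, but LOC103947617, on the plus strand 546 bases away, is named as cytochrome c oxidase copper chaperone 2, a protein that carries copper to the respiratory chain. That neighbour had 20.95, 20.5 and 22.7 CPM in watercore libraries, against 17.0, 16.1 and 17.3 CPM in healthy libraries, and was higher in watercore pulp (log2 fold change 0.35, SE 0.09, edgeR adjusted p = 0.0104), unlike LOC103947618.

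Other genes that handle metals were grouped by role. Of 161 such genes, 87 were tested, and 31 were lower, 25 higher and 31 not called in watercore pulp, with a median log2 fold change of -0.04. The shares called, 35.6% lower and 28.7% higher, lie near those of all tested genes.

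Among genes of chelation and storage, 3 of 9 tested were lower and 2 higher, against 30.4% lower and 32.3% higher over all tested genes. All 3 lower genes were named as ferritin-4, the plastid protein that stores iron. LOC103930157, with the highest CPM of them, had 211, 179 and 194 CPM in watercore libraries, against 431, 374 and 532 CPM in healthy libraries (log2 fold change -1.19, SE 0.12, edgeR adjusted p = 4.23e-05). LOC103965102 averaged 25.1 ± 2.43 CPM in watercore pulp and 135 ± 16.3 CPM in healthy pulp (log2 fold change -2.42). The remaining one, LOC103937157, named here after its values were seen, averaged 17.4 ± 2.76 CPM in watercore pulp and 67.0 ± 13.5 CPM in healthy pulp (log2 fold change -1.94). For all 3 the groups did not overlap. The tested ferritin-3 genes LOC103958647 and LOC103958648, also named after their values were seen, were not called (log2 fold change -0.27 and -0.24, edgeR adjusted p = 0.152 and 0.0959). LOC103928762, a phytochelatin synthase (glutathione gamma-glutamylcysteinyltransferase), which makes the glutathione-derived peptides that bind cadmium and other metals, averaged 66.5 ± 1.43 CPM in watercore pulp and 32.4 ± 1.31 CPM in healthy pulp (log2 fold change 1.03, SE 0.06, edgeR adjusted p = 2.5e-06). LOC103928761 and LOC103958854, of the same enzyme name and named after their values were seen, were not called (log2 fold change -0.43 and 0.44, edgeR adjusted p = 0.0656 and 0.202).

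Copper chaperones deliver copper to target proteins in the cell. Of 6 tested, 2 were lower and 1, LOC103947617 described above, was higher, against 30.4% lower and 32.3% higher over all tested genes. The gene with the highest mean CPM, LOC103928650 (ATX1-like, which in yeast and Arabidopsis passes copper to transport ATPases), averaged 229 ± 12.9 CPM in watercore pulp and 200.5 ± 21.0 CPM in healthy pulp and did not pass the test (edgeR adjusted p = 0.0634), although it did in 6 of 19 alternatives. LOC103933133, another chaperone of cytochrome c oxidase, averaged 33.7 ± 1.95 CPM in watercore pulp and 45.6 ± 1.75 CPM in healthy pulp (log2 fold change -0.44).

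Among transporters of uptake and efflux, 21 of 52 tested genes were lower and 14 higher, with a median log2 fold change of -0.16. These shares are 40.4% and 26.9%, against 30.4% lower and 32.3% higher over all tested genes. LOC103950126, YSL1-like, a carrier of metals bound to nicotianamine, had 272, 337 and 222 CPM in watercore libraries, against 96.1, 107 and 115 CPM in healthy libraries (log2 fold change 1.38, SE 0.14, edgeR adjusted p = 4.01e-05). All its watercore libraries lay above its healthy ones. It had the highest mean CPM of these genes over the 6 libraries, although in healthy pulp LOC103957385, an Nramp3-like gene named after its values were seen, stood above it at 191 ± 11.3 CPM. The annotated span of LOC103950126 contains that of LOC103950127, also YSL1-like and named after its values were seen. Reads of a shared stretch could belong to either gene. LOC103926815, a metal tolerance protein C4-like gene of the cation efflux family, averaged 2.74 ± 0.380 CPM in watercore pulp and 8.33 ± 0.918 CPM in healthy pulp (log2 fold change -1.60).

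Genes named as heavy metal-associated isoprenylated plant proteins, which carry a metal-binding domain and a lipid anchor, had 7 of 15 tested higher and 2 lower, against 32.3% higher and 30.4% lower over all tested genes, and a median log2 fold change of 0.89. Their summed level was nonetheless 2400 to 2620 CPM in watercore libraries and 2657 to 2984 CPM in healthy libraries, lower in every watercore library. LOC103943345, with the highest mean CPM of them, averaged 786 ± 40.0 CPM in watercore pulp and 1334 ± 57.6 CPM in healthy pulp (log2 fold change -0.76, SE 0.06, edgeR adjusted p = 9.49e-06). LOC103966167 averaged 19.1 ± 3.16 CPM in watercore pulp and 0.681 ± 0.189 CPM in healthy pulp (log2 fold change 4.79).

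Copper and zinc superoxide dismutases, enzymes that use both metals to remove superoxide, had 3 of 5 tested genes lower and 1 higher. Over all tested genes, 30.4% were lower and 32.3% higher. LOC103961645, a plastid form with the highest mean CPM of them over the 6 libraries, averaged 73.2 ± 2.42 CPM in watercore pulp and 83.0 ± 6.08 CPM in healthy pulp (log2 fold change -0.18, edgeR adjusted p = 0.0438). That call was lost in 14 of 19 alternatives, where the adjusted p reached 0.218, and with gene length offsets the log2 fold change turned to 0.12. LOC103956225 averaged 33.4 ± 1.21 CPM in watercore pulp and 13.0 ± 1.72 CPM in healthy pulp (log2 fold change 1.36). LOC103934033 averaged 4.63 ± 1.55 CPM in watercore pulp and 8.91 ± 3.52 CPM in healthy pulp, and passed the test at a log2 fold change of -0.94 (edgeR adjusted p = 0.0404) although its libraries overlapped between the groups, and it missed the threshold in 9 of 19 alternatives. The remaining lower gene, LOC103947719, named after its values were seen, kept its call in all 19 alternatives (log2 fold change -0.59, edgeR adjusted p = 7.6e-04).

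**Figure D5:**
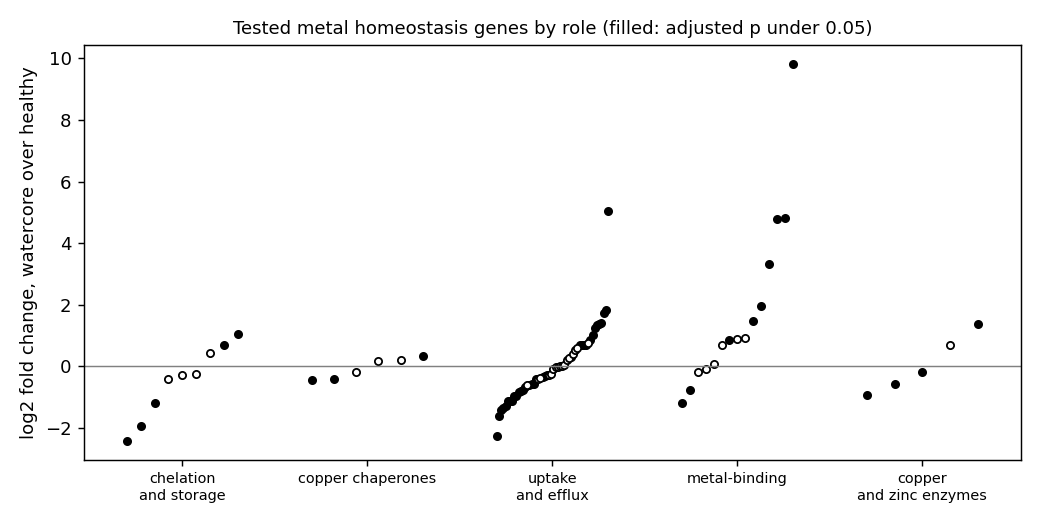
Log2 fold change of watercore over healthy pulp (vertical axis) for the 87 tested metal homeostasis genes, 1 point a gene, arranged by role along the horizontal axis and sorted within each role, with filled points for an adjusted p under 0.05. Points lie on both sides of 0 in every role, and the topmost point, a metal-binding gene at 0 counts in all healthy libraries, has a fitted value that depends on the prior count.

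The genes whose profile over the 6 libraries was nearest to each of the 3 were taken from 2006 genes with a mean of at least 100 CPM, by the root mean square difference of log2 CPM centred on each gene's own mean. Nearest to LOC103947618 were LOC103959023 (LIGHT-DEPENDENT SHORT HYPOCOTYLS 6-like, difference 0.02), LOC103962554 (a mitochondrial glycine-rich RNA-binding protein, 0.04) and LOC103937778 (the small GTPase Rab7, 0.04). Nearest to LOC103944925 were LOC103965391 (RHM1, an enzyme of UDP-rhamnose synthesis, 0.02), LOC103933054 (proton pump-interactor 1-like, 0.03) and LOC103953915 (TBC1 domain family member 15, 0.03). Nearest to LOC103941805 were LOC103931062 (actin-like, 0.01), LOC103961136 (stem-specific protein TSJT1-like, 0.02) and LOC103928462 (SEC13 homolog B of the protein transport coat, 0.02). All 6 libraries enter these values, so the match mostly reflects the difference between the groups.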

How the data were processed

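RNA-seq of watercore and healthy pear pulp gave 3 libraries in each group. Per the study's methods the reads were filtered and mapped with HISAT2 to a Pyrus betulifolia genome. The deposited table, in contrast, lists LOC identifiers on NW_ scaffolds and does not name that genome, so positions are given as in the table, with no build. Its build, the counting tool and its handling of strand, read pairs and reads that fit several genes are not given in the sources used. The authors deposited raw counts per gene without normalization, and FPKM values, which equal the counts over gene length and over a library denominator that was constant across genes and differed from the plain total. All columns of single libraries were mapped to samples by name, and 5 deposited columns of the authors' own comparison (a mean per group, the fold change and its p-values) were not used.

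Counts were fitted over the whole table with the quasi-likelihood test of edgeR 4.0.16 (R 4.3.3), with TMM factors and filterByExpr, which left 21200 genes. P-values were adjusted by Benjamini-Hochberg over these genes, and a gene was called at an adjusted p under 0.05. CPM were computed with the same effective library sizes. Wilson intervals at 95%, exact permutation tests and the counting interval of a ratio came from scipy 1.17.1, with pandas 2.3.3, numpy 2.4.6 and matplotlib 3.10.9 under Python 3.11.15. Library totals of 14382020 to 15290688 counts made counting error small for the 3 abundant genes, so the spread between libraries set the precision.

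The fit was repeated with DESeq2 1.42.0, with scaling by RLE, by upper quartiles or by library totals, with totals without metallothionein counts, other filters, the replicate number as a block, gene length offsets, limma 3.58.1 on log2(FPKM + 1) and log2(FPKM + 0.1), and each library left out in turn. The merged type 2 gene with its own alternatives, and the leave-one-out of ratios, were added after seeing the data. The genes and lists were chosen with earlier results of these data known. Named genes were the 3 abundant genes, all other tested metallothionein genes, in each metal role the most abundant gene and the called gene with the largest change in each direction at a mean of at least 5 CPM, and for likeness the 3 nearest genes. Sequences were not used here.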

Additional observations from a re-analysis of the deposited data

How the results depend on the processing

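The log2 fold changes of the 3 abundant genes kept their direction and passed the test in all 55 values from the alternatives, between -1.03 and -0.61 for LOC103947618, between 0.27 and 0.71 for LOC103944925, and between -0.64 and -0.20 for LOC103941805. The value nearest 0 for LOC103947618 and LOC103941805, and the one farthest from 0 for LOC103944925, came with gene length offsets. A 2-fold fall was called for 0 of the 3 genes in the analysis reported, and for 1, LOC103947618, with upper-quartile scaling, with library totals without metallothionein counts and with no filter on low counts. With each library left out in turn that count was 0 to 1, being 1 without watercore replicate 3 and without healthy replicate 2. The summed type 2 genes gave 0.46 with gene length offsets and 0.03 to 0.09 in the other alternatives. With gene length offsets LOC103933440 turned to 0.077 and LOC103954322 to 0.012, neither passing the test. Leaving out each library in turn gave -0.16 to 0.35 for LOC103954323, which was below 0 without watercore replicate 1 and without healthy replicate 2. LOC103933440 passed the test in 4 alternatives and LOC103944922 in 6. The cause of these moves was not tested beyond the construction of each setting. The shares of metallothionein counts moved when computed per length, as given in the report. Metal homeostasis genes called lower numbered 28 to 30 and called higher 21 to 30 over 9 alternatives. These were DESeq2, at least 10 counts in every library, gene length offsets and each library left out in turn. The other settings were not counted for these genes.

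Over all genes at 2-fold, 1599 were lower and 3730 higher in the analysis reported. With at least 10 counts in every library these counts were 1047 and 2205, and with limma on log2(FPKM + 1) they were 807 and 2118. The median log2 fold change of all tested genes was 0.16 with DESeq2 and 0.12 without a filter, both over 30138 genes, against 0.00 over 21200.

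The replicate numbers showed no pairing of the libraries in these values, since the deviations of same-numbered libraries correlated at 0.037, 0.0027 and -0.0026. Such correlations cannot show whether same-numbered libraries shared a tree or fruit, which neither the labels nor the study state. With a replicate block the log2 fold changes were -0.99 for LOC103947618, 0.32 for LOC103944925 and -0.60 for LOC103941805, and 6234 genes were lower and 6722 higher, against 6435 and 6840 without it. LOC103933440 passed the test under the block (edgeR adjusted p = 0.0279), and the summed type 2 genes gave 0.07. Under the block LOC103961645 and LOC103934033 no longer passed (edgeR adjusted p = 0.0523 and 0.0733), and LOC103928650 did (edgeR adjusted p = 0.0163).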
